A study of Mus musculus with 8 samples.

Results

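Rbpj, Maml1, Hes1, Hey1, Hey2, Heyl and Nrarp, the nuclear end of the Notch pathway, were followed in plaque-bearing arteries of mice given a blocking antibody against the Notch ligand Dll1. They were taken by gene symbol and make up 7 of the 49585 genes listed. RNA came from the brachiocephalic artery, a branch of the aortic arch, of ApoE-deficient mice in which plaques were formed by a high-fat diet begun at 12 weeks of age. The Dll1-Ab group (4 libraries) received 250 micrograms of clone HMD1-5 into the peritoneum 2 times per week, and the IgG group (4 libraries) received as much non-immune IgG on the same schedule. All animals of both groups thus lacked ApoE and ate the high-fat diet. The labels give no sex, age at sampling, length of treatment or pooling of animals. They also do not state that each library is its own animal, and the error behind every p-value is therefore that between libraries, which can be partly technical.

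Notch receptors are cut when a ligand on a neighbouring cell engages them, and the freed intracellular domain enters the nucleus. There it binds RBPJ, the DNA-binding protein of the pathway, and MAML1, a Mastermind protein that brings in histone acetyltransferases. Without the intracellular domain RBPJ recruits corepressors to the same sites. HES1, HEY1, HEY2 and HEYL are basic helix-loop-helix repressors that the complex switches on directly, and NRARP is a small ankyrin protein, also a direct target, that dampens the signal. In arteries the HEY proteins are known from endothelium and smooth muscle, where they take part in setting arterial identity.

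RBPJ recognises the motif GTGGGAA, and the promoters of Hey2 and Nrarp are shown as 2 direct targets that differ in it. The windows run from 250 bases before to 50 bases after the start of the gene, 5′ to 3′ on the strand of the gene, from RefSeq on GRCm38.p6. Capitals mark the motif read on either strand, as GTGGGAA or as its reverse complement TTCCCAC. Hey2 lies at chr10:30842734-30843033 on the minus strand and Nrarp at chr2:25180508-25180807 on the plus strand.
Hey2: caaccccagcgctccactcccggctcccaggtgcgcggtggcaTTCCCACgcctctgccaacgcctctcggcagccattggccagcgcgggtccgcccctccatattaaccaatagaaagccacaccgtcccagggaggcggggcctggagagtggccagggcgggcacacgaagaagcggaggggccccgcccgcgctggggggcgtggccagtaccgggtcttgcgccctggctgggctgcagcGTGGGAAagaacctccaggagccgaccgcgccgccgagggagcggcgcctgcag
Nrarp: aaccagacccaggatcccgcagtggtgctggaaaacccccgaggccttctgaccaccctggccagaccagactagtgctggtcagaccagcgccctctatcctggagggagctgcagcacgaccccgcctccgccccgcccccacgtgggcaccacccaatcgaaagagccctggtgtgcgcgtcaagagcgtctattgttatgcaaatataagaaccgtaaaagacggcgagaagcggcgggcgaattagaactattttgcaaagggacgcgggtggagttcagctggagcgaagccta
The Hey2 window held the motif at bases 44 to 50, as TTCCCAC, and at bases 247 to 253, as GTGGGAA across the start of transcription, with 196 bases between them. No copy was found in the windows of Nrarp and Maml1 or in the 2 windows of Rbpj, which says only that these letters are not there. Of 32851 promoter windows of the same length, 6.38% held at least 1 copy and 0.256% held 2 or more. Windows were matched for 4 of the 7 genes. Hes1, Hey1 and Heyl had no entry.

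The 8 libraries fell into 2 sets, named 045 and 076 in the table, each with 2 Dll1-Ab and 2 IgG libraries. Nuclear protein-coding genes held 21.2% to 24.2% of all TPM (transcripts per 1000000) in set 076 and 0.848% to 3.10% in set 045. Reads recovered from the TPM steps numbered 7413806 to 8060655 on these genes in set 076 and 662284 to 2724420 in set 045. Levels are therefore given as TPM rescaled so that nuclear protein-coding genes sum to 1000000 in each library, called the protein-coding scale, which like TPM is per transcript length. Of set 045, D2IA with the antibody and C1IA with IgG had Xist at 5.44 and 4.46 TPM, against 0.0342 TPM or less in the other 6 libraries. These 2 had no reads of the Y-linked Ddx3y, which each of the other 6 had. D1IA of set 076 (Dll1-Ab) held fast skeletal muscle genes, whose 14 markers summed to 6994 there, against 584 or less in the other 7 libraries. Contractile smooth muscle markers were present in every library, at a sum of 1194 to 5403 with the antibody and 821 to 5907 with IgG.

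Each of the 7 genes was detected in every library and passed the filter of a mean of at least 1. Rbpj was the most abundant, at 69.1 ± 17.5 (SD, n = 8 libraries), followed by Hey2 at 45.99 ± 11.3 and Maml1 at 27.0 ± 5.73. Nrarp (18.7 ± 7.45), Hes1 (18.3 ± 7.69), Heyl (17.5 ± 3.71) and Hey1 (13.5 ± 7.84) followed. Rbpj lay above Hey2 in 6 of 8 libraries, Hey2 above Maml1 in 8 of 8 and Maml1 above Nrarp in 8 of 8, each by more than the SD of the log2 difference. The order among Nrarp, Hes1, Heyl and Hey1 was within that spread. Reads per library numbered 72 to 115 in set 076 and 5 to 46 in set 045 for Hes1. They numbered 82 to 122 in set 076 and 7 to 47 in set 045 for Nrarp, and 57 to 85 in set 076 and 19 to 24 in set 045 for Hey1.

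**Figure D1:**
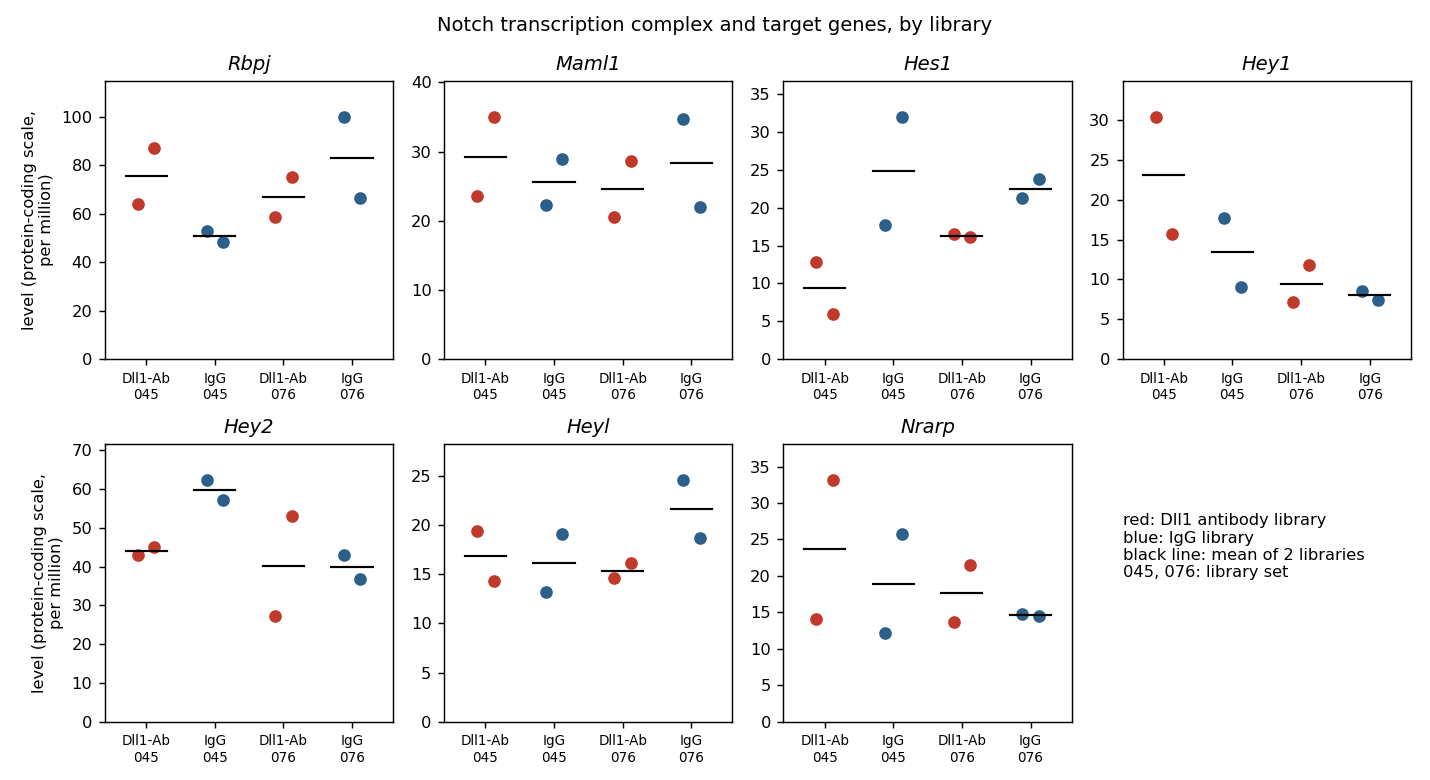
Level of each gene in each library, on the protein-coding scale (per 1000000 of protein-coding TPM, vertical axis from 0), with red points for Dll1-Ab and blue points for IgG libraries of sets 045 and 076 and black lines for the mean of 2 libraries. Hes1 lay lower in the Dll1-Ab libraries of both sets, whereas in the other 6 panels the groups overlap in at least 1 set.

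Treatment left no tested gene past the threshold. Of 18170 genes tested by limma on log2(level + 1) with the set as a term, 0 were called at an adjusted p under 0.05 (0%), and none of the 7 Notch genes was among those called. An unadjusted p under 0.05 was reached by 278 genes (1.53%), Hes1 being 1 of them. limma-voom on the recovered reads also called 0 genes. The intervals of the log2 fold changes below show how large a change these libraries leave possible.

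Within the complex, Rbpj, which anchors it to DNA, stood higher with the antibody in set 045 and overlapped in set 076. In set 045 its level was 63.9 and 87.2 in the Dll1-Ab libraries and 53.0 and 48.3 in the IgG libraries, so both antibody libraries lay above both IgG libraries. In set 076 it was 58.8 and 75.1 with the antibody and 99.9 and 66.4 with IgG. The single high value there was that of IgG library G1IA. Over both sets the mean was 71.3 ± 12.6 with the antibody and 66.9 ± 23.3 with IgG (SD, n = 4 each). The log2 fold change was thus 0.13 (SE 0.25, 95% interval -0.45 to 0.71, limma adjusted p = 1.00). Higher values without overlap were seen for 14.2% of all genes in set 045, 7.99% in set 076 and 0.66% in both, and of the 7 genes Rbpj alone showed them, in set 045. The log2 fold change was -0.04 without D2IA of set 045, -0.06 without both D2IA and C1IA of that set, -0.18 on TPM as deposited and -0.05 with array weights, and it ran up to 0.33 without G1IA of set 076. The processed pseudogenes Rbpj-ps1 and Rbpj-ps3 resemble Rbpj in sequence, and the labels do not say how reads were assigned among such copies.

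Maml1, the coactivator, did not differ between treatments beyond its spread. It lay at 23.6 and 35.0 in the Dll1-Ab libraries and 22.2 and 28.9 in the IgG libraries of set 045. In set 076 the values were 20.6 and 28.6 with the antibody and 34.8 and 22.1 with IgG, and the groups overlapped in both sets. The log2 fold change was 0.00 (SE 0.25, 95% interval -0.58 to 0.57, adjusted p = 1.00). Its antisense neighbour Gm26542 overlaps its exons and had 1 to 19 reads per library. The library kit keeps the strand, but the labels do not give the strand setting of the counting.

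Hes1, the repressor most widely used as a readout of Notch activity, was the gene with the largest difference of the 7. In set 045 its level was 12.8 and 6.004 in the Dll1-Ab libraries, from 5 reads each, and 17.7 and 32.0 in the IgG libraries, from 15 and 46 reads. In set 076 it was 16.6 and 16.1 with the antibody, from 83 and 72 reads, and 21.2 and 23.7 with IgG, from 93 and 115 reads. All 4 Dll1-Ab libraries thus lay below the IgG libraries of their own set, and also below each of the 4 IgG libraries. The Dll1-Ab mean was 0.378 times the IgG mean in set 045 and 0.726 times in set 076, and over both sets it averaged 12.9 ± 4.87 in Dll1-Ab and 23.7 ± 6.05 in IgG libraries (SD, n = 4 each). On the log2 scale the fold change of -0.89 (SE 0.33, 95% interval -1.65 to -0.12) had an unadjusted p of 0.0275 and did not pass the threshold over all genes (limma adjusted p = 1.00). A two-sided exact permutation test over the 36 assignments within sets gave p = 0.0556, the smallest that this design allows. That value follows from the lack of overlap in both sets, so it adds no support to it. For the others of the 7 the same test gave p from 0.333 to 0.944. In arterial tissue taken whole, fewer cells of a type and less RNA per cell cannot be told apart.

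Non-overlap below IgG in both sets at once was found for 264 of the 18170 genes (1.45%), and for 1.41% of the 5975 genes within 2-fold of the level of Hes1. A log2 fold change as low as that of Hes1 or lower was found for 5.43% of all genes. The depth of set 045 left wide counting intervals, and it was lower with the antibody. Protein-coding reads there numbered 662284 and 1595329 with the antibody and 1674063 and 2724420 with IgG. In that set 20.8% of all genes lay lower with the antibody without overlap, and 14.2% higher. The part of depth in the Hes1 values was not tested. For D1IA the 95% exact Poisson interval was 4.16 to 29.9 and for D2IA 1.95 to 14.01, against 9.93 to 29.3 in C1IA and 23.4 to 42.6 in C2IA. These intervals cover counting error only. limma-voom, which weights a value by the reads behind it, gave a log2 fold change of -0.66 (SE 0.34, unadjusted p = 0.0855, adjusted p = 1.00). On TPM as deposited, where levels under 1 are compressed by the added 1, it was -0.43 (SE 0.22, adjusted p = 0.954).

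**Figure D2:**
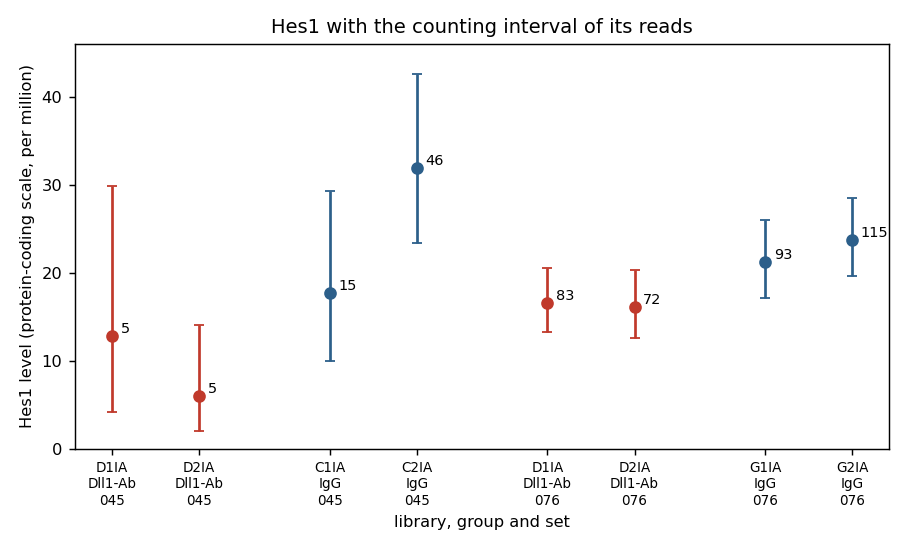
Hes1 level on the protein-coding scale (per 1000000 of protein-coding TPM, vertical axis) in each library (horizontal axis), red for Dll1-Ab and blue for IgG, with the 95% exact Poisson interval of its reads as bars and the number of reads beside each point. The 2 antibody points of set 045 rest on 5 reads each, and the bars of antibody and IgG libraries overlap in both sets for most pairs.

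By summed level, none of the 10 cell type marker lists lay on the same side without overlap in both sets, as Hes1 did. Among single genes such a pattern was rare, at 1.45% (lower) and 0.66% (higher), so its absence from 10 lists says little. By the median log2 fold change of their genes, 2 lists lay below 0 in both sets. For the lymphatic endothelial markers this was -0.47 in set 076 and -0.43 in set 045, with 5 of 7 genes below 0 over both sets, although their sum in set 045 was higher with the antibody (218 and 196) than with IgG (186 and 114). For the Schwann cell markers it was -0.06 in set 076 and -0.76 in set 045, with 8 of 10 genes below 0. The heart muscle list had 9 of 10 genes below 0 over both sets, but its median was 0.68 in set 076 and -1.74 in set 045. The 12 blood endothelial markers, none of them at 0 in any library, summed to 659 to 1611 with the antibody and 751 to 1076 with IgG. Within set 045 both antibody libraries had a higher endothelial sum (1611 and 1139 against 751 and 1076), and within set 076 both had a lower one (659 and 868 against 1004 and 962). The part of any of these lists in the Hes1 values was not tested.

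Among the HEY repressors, Hey1 and Hey2 are close relatives that can pair with each other on DNA. Hey1 was at 30.3 and 15.7 in the Dll1-Ab libraries and 17.7 and 9.10 in the IgG libraries of set 045. It was at 7.10 and 11.8 with the antibody and 8.55 and 7.47 with IgG in set 076, and the groups overlapped in both sets. The log2 fold change was 0.46 (SE 0.35, 95% interval -0.34 to 1.26, adjusted p = 1.00), with a sign opposite to that of Hes1. It ran from 0.22 without D1IA of set 045 to 0.65 without D1IA of set 076, and was 0.23 without C2IA of set 045, 0.11 with array weights and 0.08 on TPM as deposited.

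Hey2, by level the leading repressor of the 4 and the one whose promoter window above held the motif at 2 places, was at 42.9 and 45.1 in the Dll1-Ab libraries of set 045 and at 62.3 and 57.2 in its IgG libraries. Both antibody libraries lay below both IgG libraries there, a pattern seen in that set for 20.8% of all genes. The antibody values rested on 21 and 47 recovered reads and the IgG values on 66 and 103. On these reads the 95% exact Poisson intervals were 26.6 to 65.6 and 33.1 to 60.0 with the antibody. With IgG they were 48.2 to 79.3 and 46.7 to 69.3, so every pair overlapped. In set 076 Hey2 was at 27.3 and 53.2 with the antibody and 43.1 and 36.9 with IgG. The lowest and the highest value of the set thus both came from antibody libraries. The low one was D1IA, whose skeletal muscle markers summed to 6994, and the high one was D2IA, with the next highest sum of 584. A link between these markers and Hey2 was not tested. Over both sets the log2 fold change was -0.25 (SE 0.24, 95% interval -0.79 to 0.30, adjusted p = 1.00). It was -0.10 without D1IA of set 076 and -0.47 without D2IA of that set.

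Heyl, the HEY gene known from vascular smooth muscle and pericytes, showed the reverse arrangement of sets. In set 076 it was at 14.6 and 16.1 in the Dll1-Ab libraries and at 24.6 and 18.7 in the IgG libraries, with no overlap, as for 11% of all genes in that set. In set 045 it was at 19.4 and 14.4 with the antibody and at 13.2 and 19.1 with IgG, with overlap. The log2 fold change was -0.20 (SE 0.25, 95% interval -0.77 to 0.38, adjusted p = 1.00). It ran from -0.35 without C1IA of set 045, and -0.33 without D1IA of that set, to -0.12 without D1IA of set 076 and -0.068 without G1IA of set 076.

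Nrarp, the feedback inhibitor, varied more between libraries of 1 group than between groups. In set 045 it was at 14.1 and 33.2 in the Dll1-Ab libraries and at 12.1 and 25.8 in the IgG libraries, from as few as 7 and 13 reads. In set 076 it was at 13.7 and 21.5 with the antibody and at 14.8 and 14.5 with IgG. The groups overlapped in both sets, and the log2 fold change was 0.25 (SE 0.35, 95% interval -0.54 to 1.04, adjusted p = 1.00). It ran from 0.0078 without D2IA of set 045 to 0.48 without D1IA of that set, and was 0.037 without C1IA and 0.45 without C2IA of set 045. For set 076 the values were 0.13 without D2IA and 0.38 without D1IA. Its sign turned without both D2IA and C1IA of set 045 (-0.13).

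**Figure D3:**
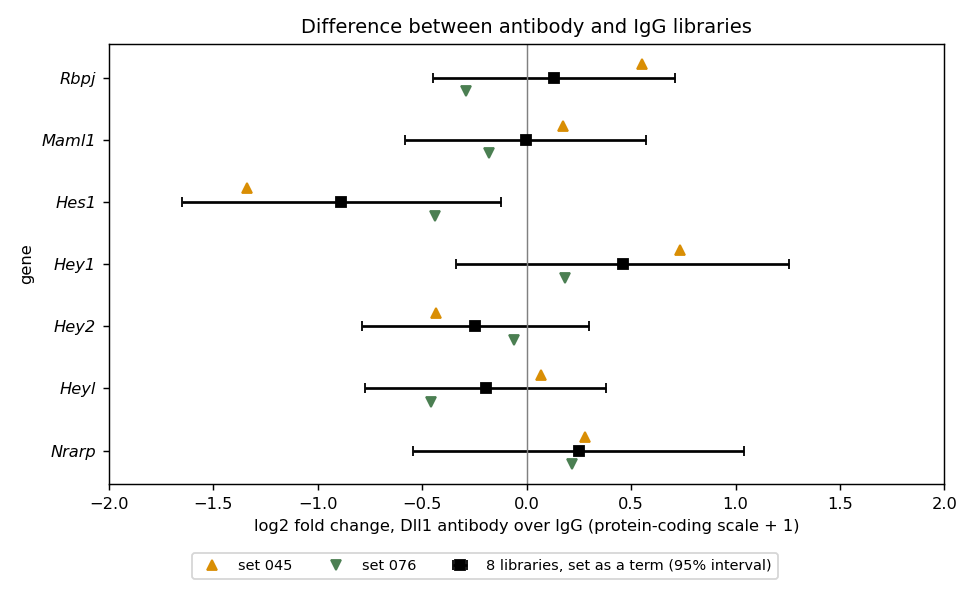
Log2 fold change of Dll1-Ab over IgG (horizontal axis) for each gene, with black squares and 95% intervals for the limma fit of 8 libraries with the set as a term, and triangles for the difference of means within set 045 (up) and set 076 (down). The interval of Hes1 alone lies below 0, from -1.65 to -0.12, before adjustment over all genes.

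An interaction term tested whether treatment acted differently in the 2 sets. The difference in log2 fold change, set 076 minus set 045, was -0.84 for Rbpj (adjusted p = 0.798), 0.90 for Hes1 (adjusted p = 0.817) and between -0.55 and 0.37 for the other 5 genes, none past the threshold. No other tested gene passed it either (0 of 18170, or 0%). The log2 fold change of Rbpj was -0.29 in set 076 and 0.55 in set 045, while Hes1 had -0.44 in set 076 and -1.34 in set 045. Each group of a set held 2 libraries, so such a test can resolve only large differences.

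Hes1, Hey1, Hey2 and Heyl were also expressed as shares of their summed TPM, which does not depend on the scale chosen. Hey2 was the largest share in every library, at 40.7% to 56.2%. The share of Hes1 was 12.1% and 7.40% in the Dll1-Ab libraries of set 045 and 15.98% and 27.2% in its IgG libraries. In set 076 it was 25.3% and 16.5% with the antibody and 21.8% and 27.3% with IgG. Antibody libraries were thus lower without overlap in set 045, but the groups overlapped in set 076. There the Hes1 share of antibody library D1IA (25.3%) lay above that of IgG library G1IA (21.8%). The share of Hey1 ran the other way, at 28.8% and 19.4% with the antibody and 15.95% and 7.76% with IgG in set 045, and at 10.8% and 12.2% with the antibody and 8.78% and 8.60% with IgG in set 076. In both sets the antibody libraries had the higher Hey1 share, which in set 045 rested on 19 to 24 Hey1 reads per library. How often shares of other genes separate in this way was not computed. Shares of 1 sum are tied, however, so a lower share of Hes1 or Hey2 raises that of Hey1. The level of Hey1 itself overlapped between the groups in both sets. This grouping of 4 genes was made with their values known and was not tested.

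**Figure D4:**
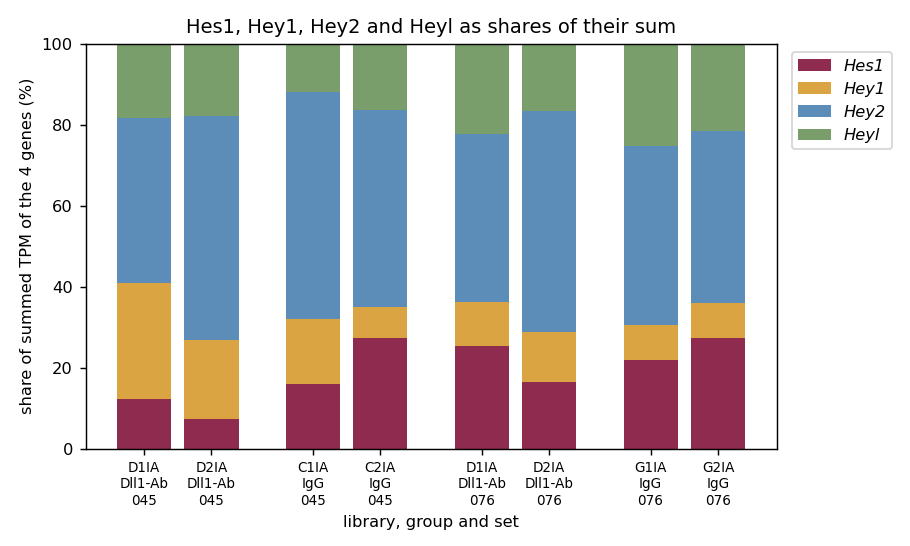
Shares of Hes1, Hey1, Hey2 and Heyl in their summed TPM (percent, vertical axis) in each library (horizontal axis). The Hey2 share is the largest in each bar, and the Hes1 share is smallest in D2IA of set 045, at 7.40%.

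Set 076 was also compared with set 045 on the protein-coding scale. None of the 7 genes was called higher or lower in set 076, against 2.67% of all genes called higher and 6.84% called lower, and their median difference was -0.05 on the log2 scale against -0.27 over all genes. The widest was that of Hey1, at 8.74 ± 2.16 in set 076 and 18.2 ± 8.88 in set 045 (SD, n = 4 each), a log2 difference of -0.89 (SE 0.35, adjusted p = 0.135). Of the 8 receptor and ligand genes, 5 were called lower in set 076, with a median of -1.23. Of the 12 contractile smooth muscle markers, 10 were called higher, with a median of 2.13. Whether the 7 genes differ from these groups was not tested.

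Other genes of the pathway showed no called change with the antibody. All 9 coactivator genes were tested and 0 were called (median log2 fold change 0.01, against -0.07 over all genes). Ccnc, the cyclin of the kinase module that phosphorylates the Notch intracellular domain, had -0.21, the acetyltransferase gene Crebbp 0.14 and the kinase gene Cdk8 -0.13. Among 18 corepressor genes 0 were called (median -0.03). Sap30, a subunit of the Sin3 deacetylase complex, had 0.84 (SE 0.28, unadjusted p = 0.0165, adjusted p = 1.00), with no overlap in set 045 alone. The Groucho gene Tle3 had 0.35 and the demethylase gene Kdm5a -0.21.

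Of 6 further HES family genes only Hes6 reached the level required for testing, with a log2 fold change of -0.11. Hes2, Hes3, Hes5, Hes7 and Helt did not. Of 14 other Notch-responsive genes 12 were tested and 0 called (median 0.01), Ptcra and Cr2 being below the filter. Dtx1, a ubiquitin ligase gene and Notch target known from lymphocytes, had the smallest p with -0.90 (SE 0.52, 95% interval -2.08 to 0.28, adjusted p = 1.00). Within the sets it had -1.66 (045) and -0.14 (076). Snai1 had 0.43 and Myc 0.25. Of the 8 receptors and ligands 0 were called (median 0.07), with 0.53 for Notch4, 0.44 for Dll4 and 0.11 for Notch2. Dll1 itself was at 19.8 and 24.9 with the antibody and 16.6 and 9.39 with IgG in set 045. In set 076 it was at 7.72 and 11.9 with the antibody and 16.7 and 12.8 with IgG. It thus lay higher without overlap in set 045, as for 14.2% of all genes, and lower in set 076, as for 11%. Over both sets its log2 fold change was 0.11 (SE 0.36), and the limma interaction of set and treatment did not pass the threshold (adjusted p = 0.798).

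Genes that varied most like each Notch gene were sought among 10713 protein-coding genes with a mean of at least 10, by the root mean square (RMS) difference of their set-centred log2 levels over the 8 libraries. Centring by set left the treatment difference in the values. With so many genes and 8 libraries, close neighbours can arise by chance, and the distance that chance gives was not computed. For Hes1, whose own RMS deviation from the set means was 0.59, the nearest were Dynlt1b, a dynein light chain gene (0.16), Cxadr, a gene for a tight junction receptor (0.19), and Emcn, a marker of capillary and venous endothelium (0.22). Emcn is 1 of the 12 blood endothelial markers, of which 8 had a log2 fold change above 0 and 4, Emcn among them (-0.57), below 0. For Hey1, with a deviation of 0.45, they were She (0.16), Tnfrsf14 (0.17) and Rpa2 (0.17). Nrarp, with a deviation of 0.44, lay nearest to Has1, a hyaluronan synthase gene (0.12), Zfp944 (0.12) and Bbs2 (0.14).

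For the other 4 genes the nearest lay closer in absolute distance, but their own deviations were smaller too. Rbpj was followed by Necap2 (0.05), Plp2 (0.07) and Mob1a (0.07), against its own deviation of 0.30. Maml1 was followed by Fam172a (0.04), Inpp5b (0.05) and Fam107b (0.05), against 0.27. Hey2 was followed by Klhl20 (0.07), Man2c1 (0.08) and Cables2 (0.08), against 0.29. Heyl, with a deviation of 0.25, lay nearest to Esr1, the oestrogen receptor alpha gene (0.08), H2-Q7 (0.09) and Sin3a, a scaffold of corepressor complexes (0.09). No Notch gene of the 7 was among the 3 nearest of another. With only 3 kept of 10713 genes searched, this says little on whether the 7 varied together.

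**Figure D5:**
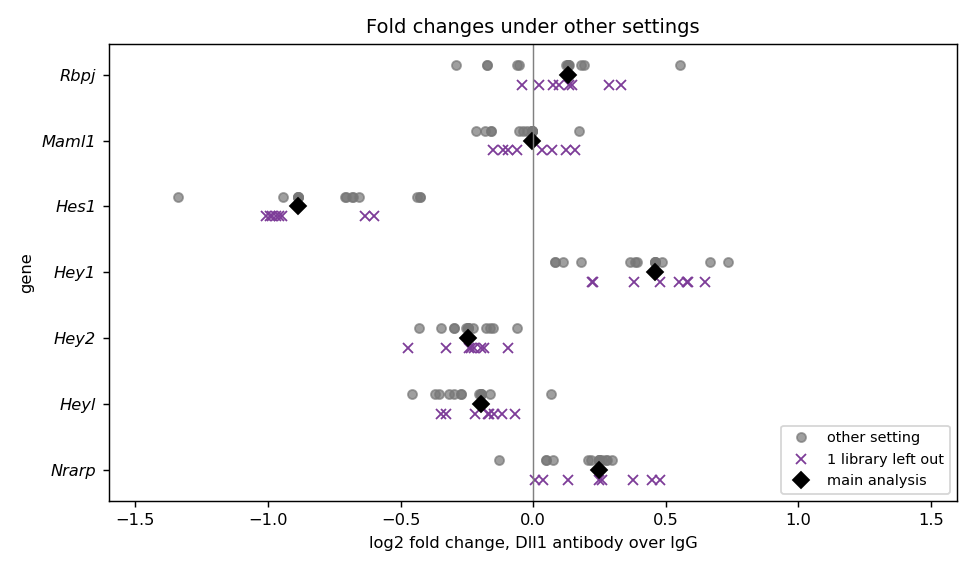
Log2 fold change of Dll1-Ab over IgG (horizontal axis) for each gene in the main analysis (diamonds), with 1 library left out (crosses) and under other settings (circles). All values of Hes1 lie below 0, from -1.34 to -0.43, while those of Rbpj, Maml1, Heyl and Nrarp lie on both sides of 0.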

How the data were processed

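Per the labels' protocols, 100 ng of total RNA per sample went through ribosomal RNA depletion and a strand-preserving library kit. The authors deposited 1 table of TPM for 49585 mouse Ensembl genes in 8 columns, each summing to 1000000, per the file headers and as summed here. Aligner, counter and annotation release are points not given in the sources used here. In addition, the submitters' processing notes name the human build hg19, and no coordinates of the table were used. Column names give the group and the set but not the numbered sample of the labels, so a column was a replicate of its group.

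GENCODE M21 gave gene types and exon lengths for 49326 of the identifiers. Multiplied by length, TPM values were whole multiples of a fixed step in each library (relative tolerance 1e-05), read as the value of 1 read, for 78.2% of 24959 genes with up to 5000 reads. For the rest, Rbpj and Hey2 among them, the shortest length that gave whole reads was used, so their reads are the fewest that fit. It gave the M21 length for 99.5% of 12454 genes where that was known.

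limma 3.58.1 in R 4.3.3 (trended, robust empirical Bayes, 5 residual degrees of freedom) was run on log2(level + 1) of genes averaging at least 1 on the protein-coding scale, with a term for the set, two-sided, with Benjamini-Hochberg adjustment over all genes tested and a threshold of 0.05. A fold change on this scale understates that of low genes. The fit was tested on simulated data. Alternatives were the scale, the set term, pseudocounts of 0.1 and 5, filters, variance settings, limma-voom, each set alone and each library left out. The 7 genes, the lists and the settings were chosen with earlier results of these data known. Named were the 7 genes, up to 3 genes of smallest p in each of 5 Notch lists, and the 3 genes nearest to each of the 7. Marker genes, Xist, Ddx3y, Gm22042, Gm26542, Gm38287 and genes under the filter are named beside them.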

Additional observations from a re-analysis of the deposited data

Results flagged for a closer look

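In 1 of 14 groups of 4 libraries examined, a library stood apart. Among the IgG libraries, Hey1 in C1IA of set 045 lay at 17.7 on the protein-coding scale, against 7.47 to 9.10 in the other 3, and its gap to the nearest was 0.840 of the range of the group, above the 95% critical value of Dixon's test for 4 values. It rested on 24 reads. Chance flags about 1 in 20 groups drawn from 1 population, whereas each group here joins both sets, and Hey1 averaged 8.74 in set 076 and 18.2 in set 045.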

How the results depend on the processing

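Over 22 alternatives, 141 of 154 log2 fold changes of the 7 genes kept their sign, and none passed the threshold. Dropping the set term, changing the filter or dropping the variance trend left these values unchanged. Signs kept there were fixed in advance, so the count overstates how far the signs were tried. Hes1, Hey1 and Hey2 kept their sign in all. Hes1 ranged from -1.34 in set 045 alone to -0.43 on TPM as deposited, and from -1.01 to -0.60 with 1 library left out (adjusted p 0.614 to 1.00 over all alternatives). Rbpj turned to -0.18 on TPM as deposited with or without the set as a term, -0.052 with array weights, -0.29 in set 076 alone and -0.061 without D2IA and C1IA of set 045, an alternative chosen after seeing the data. It ran from -0.041 to 0.33 with 1 library left out. Maml1 turned to 0.17 and Heyl to 0.067 in set 045 alone, and Nrarp to -0.13 without D2IA and C1IA of set 045. Maml1 ran from -0.15 to 0.16 with 1 library left out. The cause was not tested. Genes called lower numbered 0 in the main analysis, 1 on TPM as deposited with the set as a term (Gm22042, named because of its value) and 9 in set 076 alone. List medians turned sign in 12 of 22 alternatives for coactivators (-0.15 to 0.08), 3 for corepressors (-0.18 to 0.03), 2 for other HES genes (-0.48 to 0.13), 11 for other targets (-0.17 to 0.21) and 8 for receptors and ligands, whose median was -0.18 in set 076 alone and 0.32 in set 045 alone. The genes passing the filter differ between alternatives. TPM as deposited had a median log2 fold change over all genes of -0.17, against -0.07. No paired analysis was possible because the columns do not carry the replicate numbers of the labels. Depth limits Hes1, Nrarp and Hey1 in set 045 most.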

Other observations

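Gm38287, an antisense gene whose exons overlap Nrarp on the opposite strand, was named because of its values. It had 0 reads in both Dll1-Ab libraries of set 045 and 15 and 16 reads in the IgG libraries of that set, and 0 reads in all 4 libraries of set 076, where a count of 0 allows up to 3 reads. Its levels in the IgG libraries of set 045 were 17.6 and 11.04 on the protein-coding scale, and Nrarp had 12.1 and 25.8 in the same libraries. Protein-coding reads were 662284 and 1595329 in the antibody libraries and 1674063 and 2724420 in the IgG libraries of that set.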
